A study of Mus musculus with 8 samples.

Results

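The genes described are 37 mouse genes of cholesterol and fatty acid synthesis, chosen by their known function and matched by symbol in an expression table of 77981 genes. They comprise 5 genes that control the pathway through SREBP transcription factors, 18 enzymes of cholesterol synthesis, 5 genes of fatty acid synthesis and its NADPH supply, and 9 desaturases and elongases that modify fatty acids. Other genes of these routes were not analysed here as members. Expression was given as TPM (transcript abundance, a level corrected for transcript length and scaled to one common total per library). The tissue was mouse kidney, labelled by cell type as IMCD, which stands for inner medullary collecting duct, the last tubule segment before urine leaves the kidney. The 4 libraries of the genotype AVP-flox, called the controls here, carried loxP sites in the first intron and downstream of the vasopressin gene Avp. The 4 others, of the genotype AVP-flox;Cre and called the Cre group, held the same floxed allele and a Cre recombinase, and neither its promoter nor the cells it acts in was stated by the labels. Both groups shared the tamoxifen treatment, so no untreated library and no Cre without the floxed allele was among them. The labels state no age. The labels do not say whether replicates were separate animals, and the p-values measure the spread between these libraries.

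Cells make cholesterol from acetyl-CoA through mevalonate, the isoprenoid farnesyl diphosphate, squalene and lanosterol, and they make fatty acids from cytosolic acetyl-CoA with NADPH as the reducing agent. Both routes are controlled by the SREBP factors. When membrane cholesterol is low, the chaperone Scap carries SREBP from the endoplasmic reticulum to the Golgi, where proteases release its active part, and when sterols are plentiful the Insig proteins hold Scap back. Collecting duct cells use these lipids for the apical and vesicle membranes in which water channels and sodium channels lie.

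The targeted gene Avp, which is made in the hypothalamus, was at 0 to 0.24 TPM in the controls and at 0 to 0.27 TPM in the Cre group, so kidney RNA cannot show the deletion. The water channel gene Aqp2 ran from 14915 to 18131 TPM in the controls and from 5443 to 7036 TPM in the Cre group. The other tissue and cell markers were uneven. The 7 markers of thick limb and distal tubule summed to 2126, 347, 1771 and 1830 TPM in controls 1 to 4 and to 541 to 779 TPM in the Cre group. The 12 proximal tubule markers summed to 826, 98.5, 465 and 63.5 TPM in controls 1 to 4 and to 129 to 319 TPM in the Cre group. Of 11 adipocyte markers, 8 had means under 1 TPM, and the defining gene Adipoq was at 0 to 0.65 TPM, while Fabp4, which endothelium also expresses, was at 111 to 192 TPM. Summed markers of the papillary surface ran from 1797 to 2820 TPM in the controls and from 5012 to 5762 TPM in the Cre group, those of interstitial fibroblasts and pericytes from 143 to 196 and from 293 to 364 TPM, and those of intercalated cells from 249 to 375 and from 364 to 483 TPM. The 10 macrophage and leukocyte markers summed to 133 to 217 and 154 to 248 TPM, and the 8 endothelial markers to 2475 to 2541 and 2061 to 2162 TPM. Among tested markers, limma called 7 of 8 for the papillary surface (6 higher), 4 of 9 interstitial (all higher) and 4 of 8 intercalated (all higher). Further calls were 5 of 8 endothelial (3 higher), 1 of 8 leukocyte (higher), 1 of 6 thick limb (higher) and 6 of 10 principal cell genes (3 higher). The thick limb call thus went against the lower thick limb sums of the Cre group. The leukocyte (12.5%) and thick limb (16.7%) shares lay under that of all tested genes, of which limma called 27.3% (13.1% higher and 14.2% lower). It called 0 of 11 proximal tubule and 0 of 3 adipocyte genes, and 0 of either had an unadjusted p under 0.05. The proximal tubule sums spread from 63.5 to 826 TPM within the controls, so the lack of calls cannot show that the groups were alike. In such bulk samples, fewer cells of a type and less RNA per cell cannot be told apart, and the part of these cells in the results that follow was not tested. Genes above 0 TPM numbered 33576 in AVP-flox;Cre 2 and between 50951 and 58232 in each of the 7 others, and read depth is unknown because the table holds no counts. In AVP-flox;Cre 4, 23412 genes reached 1 TPM, the most of the 8 libraries. AVP-flox 2, low in thick limb markers, and these 2 Cre libraries are called the 3 libraries that stood apart, and calls that end without them are given with the genes. Xist, which is expressed from the inactive X chromosome of females, exceeded 1 TPM in AVP-flox 2, 3 and 4 and AVP-flox;Cre 3 and 4 and stayed under it in the other 3 libraries.

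The question was whether lipid synthesis genes differed between floxed mice with and without the recombinase. Most of them did not pass the test. Fads1 and Fads2, the desaturases of polyunsaturated fatty acids, and Pmvk, a kinase of the mevalonate route, rose. Me1, the cytosolic malic enzyme that makes NADPH, and Lss and Msmo1, enzymes after squalene, fell. Over 24 alternative ways of processing, the Pmvk call ended in 14, the Lss call in 7 and the Msmo1 call in 1. All 37 genes averaged 1 TPM or more and were tested. With limma and Benjamini-Hochberg adjustment over all 19043 tested genes, 3 of 37 rose (13.1% of all tested genes rose), 3 fell (14.2% of all fell) and 31 did not pass, so that 16.2% were called against 27.3% of all tested genes. Their median log2 fold change was -0.08, against -0.01 over all tested genes. The 2 groups did not overlap for 10 of the 37 genes, against 29.5% of all tested genes. Of the 37 genes 1, Me1, passed and differed by at least 2-fold in mean TPM, against 7.92% of all tested genes. A fit of protein-coding genes only called a larger share than that of all tested genes, with 2405 of 13149 higher and 2554 lower.

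**Figure D1:**
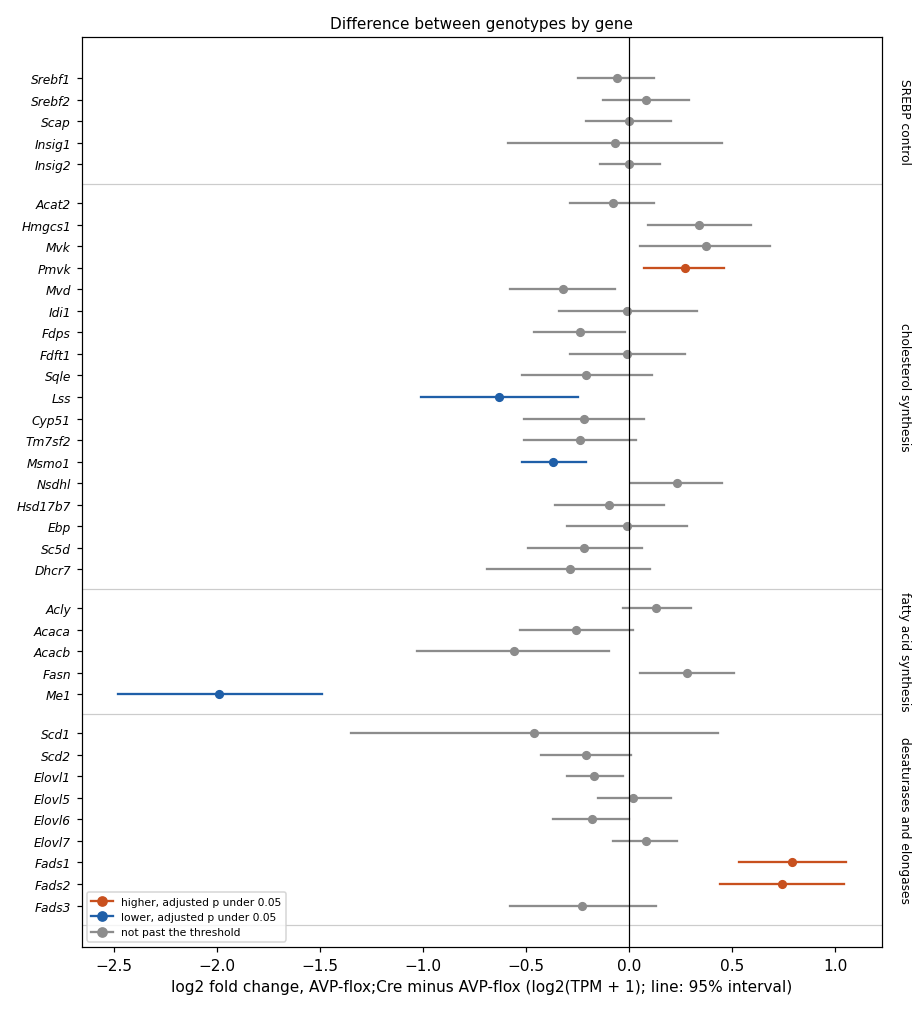
Log2 fold change of each gene on the log2(TPM + 1) scale (horizontal axis, AVP-flox;Cre minus AVP-flox, n = 4 libraries per group) with its 95% interval, arranged by role. Me1 lies far to the left at -1.99, Fads1 and Fads2 to the right at 0.79 and 0.74, and the 5 SREBP control genes lie within 0.08 of 0.

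Of the 5 SREBP control genes, 0 passed in limma, against 27.3% of all tested genes, and 0 had an unadjusted p under 0.05. Srebf1, the factor chiefly tied to fatty acid genes, stood at 65.4, 84.2, 76.2 and 74.9 TPM in controls 1 to 4 and at 69.98, 75.6, 71.2 and 70.2 TPM in Cre libraries 1 to 4. Its log2 fold change was -0.06 (95% interval -0.25 to 0.12, adjusted p = 0.629 in limma). Srebf2, the factor chiefly tied to cholesterol genes, stood at 45.65 to 57.3 TPM and at 49.7 to 60.9 TPM. Its difference of 0.08 had an interval of -0.13 to 0.29. The groups overlapped for both factors. Scap was at 67.9 ± 4.7 TPM in the controls and 68.0 ± 7.5 TPM in the Cre group (SD, n = 4), and Insig2 at 70.8 ± 4.3 and 70.9 ± 1.6 TPM. The intervals of these differences ran from -0.21 to 0.20 for Scap and from -0.14 to 0.15 for Insig2. Insig1, the Insig gene that SREBP itself induces, varied more, at 11.7, 17.8, 12.5 and 24.2 TPM in the controls and 10.7, 17.2, 18.02 and 15.5 TPM in the Cre group. The interval for Insig1, -0.59 to 0.45, was wider than those of the other 4 genes. Gene totals cannot separate the start sites of Srebf1, which give proteins of different strength. Srebf1 also overlaps Rai1 on the opposite strand, which averaged 22.7 TPM in the controls and 22.1 TPM in the Cre group.

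Me1 (ENSMUSG00000032418) showed the largest difference among the 37 genes. It stood at 174, 193, 139 and 121 TPM in controls 1 to 4 and at 60.0, 33.8, 37.6 and 27.8 TPM in Cre libraries 1 to 4. Every Cre library lay below every control, and AVP-flox;Cre 1 was the highest of its group. Mean Me1 fell 3.94-fold, from 157 ± 33 to 39.8 ± 14.1 TPM, a log2 fold change of -1.99 (SE 0.22, adjusted p = 2.39e-04 in limma). Without the 3 libraries that stood apart it was -1.57 (adjusted p = 0.00954). The exact permutation test gave a two-sided p = 0.029, the smallest that 4 against 4 allows. Me1 was the fourth most abundant of the 37 genes in the controls and ranked 18 in the Cre group. Within the controls, the low proximal tubule sums of AVP-flox 2 and 4 went with the highest and the lowest Me1 value, and AVP-flox 2 also had the lowest thick limb sum. The part of these tubule segments in the Me1 difference was not tested. An overlapping gene on the opposite strand, A330041J22Rik, averaged 1.83 TPM in the controls and 1.29 TPM in the Cre group.

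Windows around transcription start sites were available from RefSeq for 31 of the 37 genes, and 6 are shown, 1 for each called gene with an entry and that of Hmgcs1 at the edge of the threshold. Each runs 5' to 3' on the gene's own strand on build GRCm38.p6, from 250 bases before the start site to 50 after it. The build behind the expression table is not given in the sources used here. Capitals mark matches on either strand to TGACNNNGC, the core of the antioxidant response element bound by NRF2, to CACCCCAC, the core of a sterol response element bound by SREBP, to the E-box CACGTG, to CCAAT, bound by NF-Y, or to TTGCNNAA, a C/EBP pattern. A match describes letters in the window and shows no binding. For Me1 and Pmvk, which have a second window, the window with the antioxidant response element core is the one shown.

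The Me1 window on the minus strand at chr9:86695865-86696164 holds an antioxidant response element core and none of the other 4 patterns, while a second Me1 window in RefSeq holds 1 CCAAT match.
Me1: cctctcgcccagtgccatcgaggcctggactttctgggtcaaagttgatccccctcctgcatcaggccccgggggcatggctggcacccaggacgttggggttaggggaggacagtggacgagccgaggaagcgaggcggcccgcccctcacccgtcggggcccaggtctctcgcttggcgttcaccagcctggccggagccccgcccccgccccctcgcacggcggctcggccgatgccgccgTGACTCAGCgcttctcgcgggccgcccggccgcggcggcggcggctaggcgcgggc

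The Fads2 window on the minus strand at chr19:10101454-10101753 holds none of the 5 patterns.
Fads2: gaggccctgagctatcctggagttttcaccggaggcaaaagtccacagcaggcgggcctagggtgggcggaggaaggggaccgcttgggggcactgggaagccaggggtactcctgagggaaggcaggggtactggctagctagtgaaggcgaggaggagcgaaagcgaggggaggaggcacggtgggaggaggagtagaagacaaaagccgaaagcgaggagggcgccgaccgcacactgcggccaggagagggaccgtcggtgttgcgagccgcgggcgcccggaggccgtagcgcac

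The Pmvk window on the plus strand at chr3:89459321-89459620 also holds an antioxidant response element core, as do 12.4% of all 32851 windows. A second Pmvk window, upstream on the same strand at chr3:89454291-89454590, holds 1 CCAAT match and not this core. The window shown thus lies around the later of these start sites.
Pmvk: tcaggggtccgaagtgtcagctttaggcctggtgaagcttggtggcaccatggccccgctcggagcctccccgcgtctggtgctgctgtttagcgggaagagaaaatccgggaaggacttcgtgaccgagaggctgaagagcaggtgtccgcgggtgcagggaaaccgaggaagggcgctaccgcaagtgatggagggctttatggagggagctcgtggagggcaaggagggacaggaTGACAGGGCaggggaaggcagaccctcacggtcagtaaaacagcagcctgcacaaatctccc

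The Lss window on the plus strand at chr10:76531355-76531654 holds 1 CCAAT match.
Lss: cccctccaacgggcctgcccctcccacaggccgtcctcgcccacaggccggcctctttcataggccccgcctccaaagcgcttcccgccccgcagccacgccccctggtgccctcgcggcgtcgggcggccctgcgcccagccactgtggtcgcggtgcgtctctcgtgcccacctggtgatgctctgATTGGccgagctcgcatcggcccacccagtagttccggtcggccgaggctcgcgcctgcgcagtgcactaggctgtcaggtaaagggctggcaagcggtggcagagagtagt

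The Msmo1 window on the minus strand at chr8:64733529-64733828 holds 3 CCAAT matches.
Msmo1: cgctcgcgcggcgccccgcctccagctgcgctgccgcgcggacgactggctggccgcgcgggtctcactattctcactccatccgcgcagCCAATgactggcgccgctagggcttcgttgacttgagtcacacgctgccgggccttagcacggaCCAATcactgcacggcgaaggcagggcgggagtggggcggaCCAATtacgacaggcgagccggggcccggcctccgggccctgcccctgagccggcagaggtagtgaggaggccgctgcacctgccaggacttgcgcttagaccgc

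The Hmgcs1 window on the plus strand at chr13:119690101-119690400 holds a sterol response element core beside 4 CCAAT matches.
Hmgcs1: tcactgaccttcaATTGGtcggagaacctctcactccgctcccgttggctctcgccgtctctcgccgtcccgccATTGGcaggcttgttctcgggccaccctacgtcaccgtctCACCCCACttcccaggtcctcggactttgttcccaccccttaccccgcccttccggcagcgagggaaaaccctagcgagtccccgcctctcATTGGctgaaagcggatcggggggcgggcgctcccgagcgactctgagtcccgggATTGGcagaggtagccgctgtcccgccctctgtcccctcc

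Over the 41 windows of the 31 genes, some of which have several start sites, CCAAT was found in 63.4% against 37.4% of all 32851 windows of the same length. The E-box was in 17.1% against 7.15%, the sterol response element core in 7.32% against 2.87%, the antioxidant response element core in 14.6% against 12.4% and the C/EBP pattern in 4.88% against 10.8%. The sterol core occurred in Acat2, Hmgcs1 and Elovl7, none of which was called. These shares are descriptions, since some genes have several windows and the windows share base composition.

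The other genes of fatty acid synthesis did not pass. Fasn, the synthase that builds palmitate, stood at 28.5, 39.9, 37.8 and 34.98 TPM in the controls and at 40.6, 44.1, 43.7 and 43.0 TPM in the Cre group. Its groups did not overlap, and its difference was 0.28 (interval 0.05 to 0.51, adjusted p = 0.0705 in limma). With a correction of each library for the GC content at transcript starts, the Fasn difference was 0.46 with an adjusted p = 0.0148, over a range of 0.0148 to 0.244 in 23 alternatives, and without AVP-flox 2 Fasn passed at 0.0459. Acly, which makes cytosolic acetyl-CoA from citrate, was at 90.6 to 98.3 TPM and at 98.7 to 118 TPM, without overlap and with a difference of 0.13 (adjusted p = 0.211). In each control Acly was lower than Me1, at 0.506 to 0.815 times its level, and in each Cre library it was higher, at 1.76 to 4.26 times. The acetyl-CoA carboxylases, which make malonyl-CoA, were low. Acaca averaged 7.46 ± 0.60 and 6.09 ± 0.59 TPM, and Acacb stood at 6.45, 3.28, 4.43 and 6.98 TPM in the controls against 2.94, 3.00, 3.32 and 3.26 TPM in the Cre group. The Acacb difference of -0.56 had an adjusted p = 0.0715 in limma, with a range of 0.0203 to 0.27 over 22 alternatives. Acacb passed among protein-coding genes (0.0489) and without AVP-flox 2 (0.0203).

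**Figure D2:**
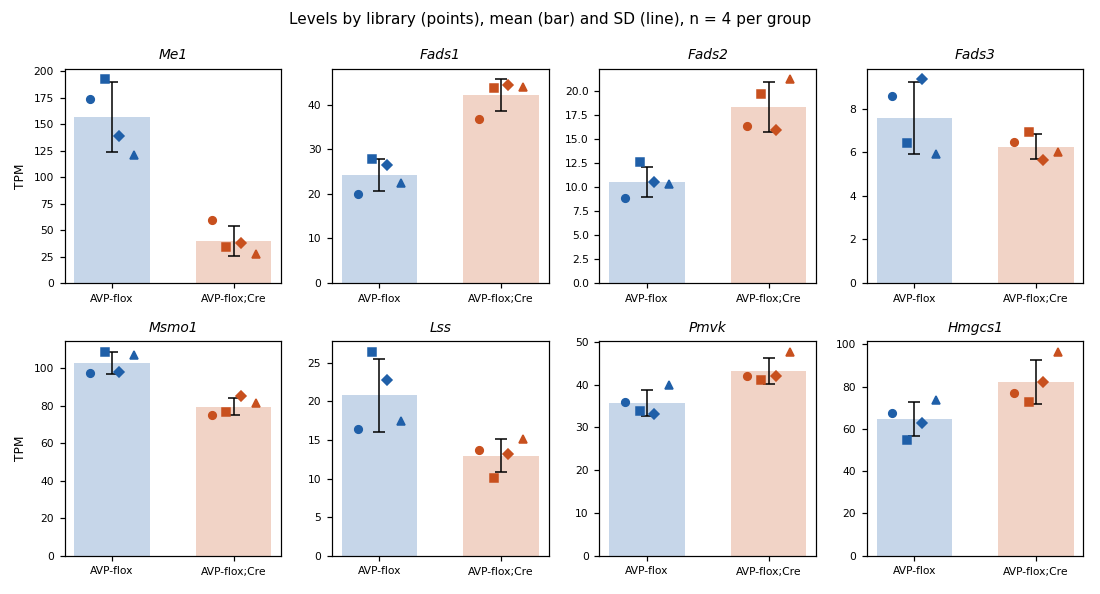
TPM in each library for 8 genes (vertical axes start at 0), with marker shapes for replicates 1 to 4, bars for group means and lines for the SD of 4 libraries. The Me1 libraries of the Cre group lie at 27.8 to 60.0 TPM against 121 to 193 TPM, Fads1 and Fads2 are higher in every Cre library, and Fads3 and Hmgcs1 overlap between groups.

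Fads1 (ENSMUSG00000010663) and Fads2 (ENSMUSG00000024665) encode the desaturases that turn dietary linoleic and linolenic acid into arachidonic acid and its relatives, the precursors of prostaglandins. Fads1 stood at 19.95, 27.85, 26.5 and 22.4 TPM in the controls and at 36.8, 43.8, 44.3 and 43.85 TPM in the Cre group. The rise was 1.74-fold in mean TPM, with a log2 fold change of 0.79 (SE 0.12, adjusted p = 0.00111 in limma). Fads2 stood at 8.84, 12.6, 10.5 and 10.4 TPM and at 16.4, 19.7, 15.98 and 21.3 TPM. It also rose 1.74-fold, with a log2 fold change of 0.74 (SE 0.13, adjusted p = 0.00321). For both genes the lowest value of the Cre group lay above the highest control, with an exact permutation p = 0.029 for each. The ratio of Fads1 to Fads2 was 2.16 to 2.52 in the controls and 2.06 to 2.77 in the Cre group. The third gene of this cluster on mouse chromosome 19, Fads3, whose product acts on sphingoid bases, did not pass, at 7.59 ± 1.66 and 6.26 ± 0.57 TPM (difference -0.23, interval -0.58 to 0.13). In the RefSeq annotation 1 predicted gene lies between Fads3 and Fads2 and another between Fads2 and Fads1. The first 300 nt of the longest Fads1 transcript hold 72.3% GC.

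The stearoyl-CoA desaturases introduce the first double bond into saturated fatty acids. Scd2 was the most abundant of the 37 genes in the controls, at 226, 300, 222 and 223 TPM, and stood at 201, 210, 204 and 218 TPM in the Cre group. Its groups did not overlap, but the difference of -0.21 did not pass (interval -0.43 to 0.01, adjusted p = 0.144 in limma). Scd1, the main form of liver and fat, was at 5.49, 8.20, 13.6 and 5.52 TPM in the controls and at 4.54, 2.31, 11.96 and 5.69 TPM in the Cre group. Scd2 exceeded Scd1 in each library, by 16.4 to 91.0 times. The related copies Scd3 and Scd4 stayed between 0.21 and 1.85 TPM, and reads shared among these copies could shift the low Scd1 values.

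No elongase passed the test. Elovl5, which lengthens polyunsaturated fatty acids, was at 229 ± 24 TPM in the controls and 232 ± 9 TPM in the Cre group, with an interval of -0.15 to 0.20 for the difference. Elovl1, which makes very long saturated chains, was at 163 to 176 TPM and at 143 to 163 TPM without overlap, a difference of -0.17 (interval -0.30 to -0.03, adjusted p = 0.0734 in limma). Its adjusted p ranged from 0.0378 to 0.313 over 23 alternatives. Elovl1 passed with values rescaled without mitochondrially encoded and the 10 most abundant genes (adjusted p = 0.0378), with sample weights (0.0436) and without AVP-flox;Cre 2 (0.0427). Elovl6, which lengthens palmitate to stearate, was at 59.2 ± 3.1 and 52.1 ± 5.0 TPM (difference -0.18, adjusted p = 0.130). Elovl7, another elongase of saturated chains, was at 111 ± 5 and 117 ± 8 TPM (difference 0.08, adjusted p = 0.475). Of the 9 desaturases and elongases, 2 thus rose and 7 did not pass, with a median log2 fold change of -0.17. The share called was 22.2%, against 27.3% of all tested genes.

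Among the 18 cholesterol enzymes, 1 rose and 2 fell, while 15 did not reach the threshold (median log2 fold change -0.15). The share called was 16.7%, against 27.3% of all tested genes. Msmo1 (ENSMUSG00000031604), the oxidase that removes methyl groups from lanosterol products, stood at 97.55, 109, 97.8 and 107 TPM in the controls and at 75.1, 76.8, 85.1 and 81.3 TPM in the Cre group. All Cre libraries lay below all controls, a fall of 0.37 on the log2 scale (SE 0.07, adjusted p = 0.00436 in limma, exact permutation p = 0.029). Without the 3 libraries that stood apart, Msmo1 did not pass (-0.33, adjusted p = 0.0676). Lss (ENSMUSG00000033105), the cyclase that forms lanosterol, stood at 16.4, 26.5, 22.8 and 17.4 TPM and at 13.7, 10.1, 13.1 and 15.1 TPM. Its mean fell 1.60-fold (log2 fold change -0.63, SE 0.17, adjusted p = 0.0218), also without overlap. The Lss call ended without AVP-flox 2 (adjusted p = 0.0542), AVP-flox 3 (0.0626) or AVP-flox;Cre 2 (0.0515), over a range of 0.0117 to 0.121 in 23 alternatives, the highest without the 3 libraries that stood apart. Pmvk (ENSMUSG00000027952), the second kinase of the mevalonate route, stood at 36.1, 33.8, 33.1 and 39.9 TPM in the controls and at 42.0, 41.0, 41.98 and 47.75 TPM in the Cre group. It rose 1.21-fold (log2 fold change 0.27, SE 0.09, adjusted p = 0.0441). Its call ended when any library other than AVP-flox 4 was left out, with adjusted p from 0.0543 to 0.118 in those 7 fits and from 0.0268 to 0.259 over 23 alternatives, again highest without the 3 libraries that stood apart.

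Of the enzymes up to farnesyl diphosphate that did not pass, Hmgcs1, which makes HMG-CoA, came closest to the threshold. It stood at 67.4, 54.7, 62.6 and 73.85 TPM in the controls and at 76.7, 72.6, 82.0 and 96.5 TPM in the Cre group, with 1 control above the lowest Cre library. Its difference of 0.34 (interval 0.09 to 0.59) had an adjusted p = 0.0505 in limma and passed in 7 of 23 alternatives, with a range of 0.0215 to 0.191, among them the fits without AVP-flox 4 (0.0334) and without AVP-flox;Cre 2 (0.0414). Mvk, the first mevalonate kinase, was at 13.9 to 17.95 TPM in the controls and at 15.3, 22.2, 22.6 and 20.8 TPM in the Cre group (difference 0.37, adjusted p = 0.0793). Without AVP-flox;Cre 1, the library close to the controls, Mvk passed (0.49, adjusted p = 0.0157), and its range over 23 alternatives was 0.0157 to 0.308. Mvd, the decarboxylase that follows Pmvk, lay the other way, at 13.2 to 18.7 TPM and 12.01 to 13.5 TPM (difference -0.32, adjusted p = 0.0630). Mvd passed without AVP-flox 3 (-0.41, adjusted p = 0.0276), over a range of 0.0276 to 0.289 in 23 alternatives. Acat2, the thiolase that starts the route, was at 27.4 ± 2.4 and 25.8 ± 1.7 TPM, and its near copy Acat3 was at 0.14 to 0.76 TPM. Idi1, the isomerase of isopentenyl diphosphate, was the lowest of the 37 genes in the controls, at 4.64 ± 0.42 TPM against 4.64 ± 0.72 TPM. Fdps, which makes farnesyl diphosphate, was at 73.3, 82.7, 76.8 and 78.95 TPM in the controls and at 60.9, 59.9, 80.5 and 64.0 TPM in the Cre group (difference -0.24, adjusted p = 0.102). Only AVP-flox;Cre 3 reached the control range of Fdps, and without that library the difference was -0.33 with an adjusted p = 0.0155, the lowest of its range up to 0.562 over 23 alternatives.

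The remaining enzymes from squalene onwards did not pass. Fdft1, which makes squalene, was at 23.9 ± 3.9 and 23.7 ± 2.4 TPM. It shares exonic sequence on the opposite strand with Ctsb, at 554 and 586 TPM on average. The libraries do not mark strand, so reads from Ctsb could enter the Fdft1 values. Sqle, the squalene epoxidase that is often rate limiting, stood at 32.5, 33.1, 36.6 and 36.6 TPM in the controls and at 22.7, 27.9, 36.97 and 34.2 TPM in the Cre group. Sqle was lower than all controls in AVP-flox;Cre 1 and 2 and within or above their range in AVP-flox;Cre 3 and 4 (difference -0.21, interval -0.52 to 0.11). Cyp51, the lanosterol demethylase, was at 26.2 ± 3.7 and 22.3 ± 3.1 TPM (difference -0.22, interval -0.51 to 0.07). Cyp51 has the same limit, since it overlaps Akap9 on the opposite strand, at 53.9 and 60.9 TPM on average. Tm7sf2, a sterol reductase, was at 10.5 ± 0.8 and 8.78 ± 1.09 TPM, and it overlaps Vps51 on the same strand, at 90.9 and 81.4 TPM on average, and reads shared with it make its values uncertain. Nsdhl, a sterol dehydrogenase on the X chromosome, was at 22.3 ± 1.2 and 26.5 ± 3.0 TPM (difference 0.23, adjusted p = 0.113). It passed without AVP-flox;Cre 1 (0.30, adjusted p = 0.0489), over a range of 0.0489 to 0.394 in 23 alternatives. Hsd17b7, the keto-reductase of the same step, was at 18.9 ± 2.1 and 17.7 ± 2.5 TPM, and Ebp, the sterol isomerase, at 37.1 ± 4.7 and 36.9 ± 6.4 TPM. Sc5d, a sterol desaturase, was at 68.4 ± 8.2 and 58.9 ± 9.6 TPM (difference -0.22, interval -0.49 to 0.06). Dhcr7, which completes cholesterol in one branch of the route, was at 14.7, 18.1, 15.95 and 9.31 TPM in the controls and at 10.6 to 12.2 TPM in the Cre group. Its difference of -0.29 (adjusted p = 0.257) became -0.48 without AVP-flox 4, with an adjusted p = 0.0177 and a range of 0.0177 to 0.656 over 23 alternatives.

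**Figure D3:**
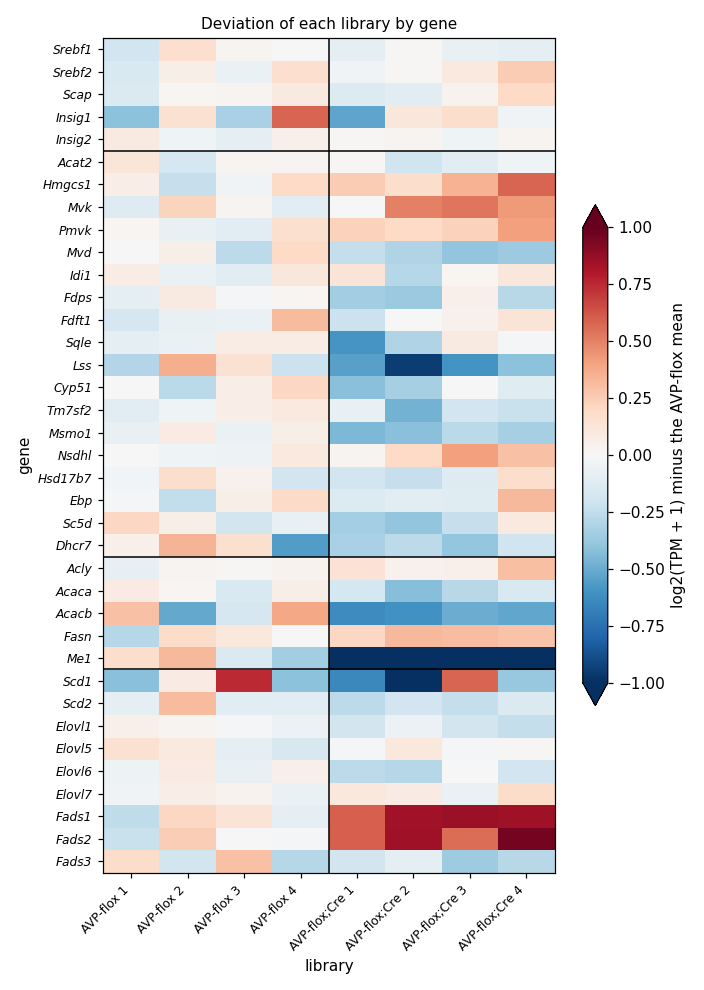
Heat map of log2(TPM + 1) in each of the 8 libraries (columns) minus the AVP-flox mean, for the 37 genes (rows, arranged by role; colours end at 1 and -1). Me1 is below -1 in the 4 AVP-flox;Cre libraries, Fads1 and Fads2 are red in all of them, and Sqle, Fdps and Cyp51 are bluest in AVP-flox;Cre 1 and 2.

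The 18 cholesterol enzymes together summed to 606 to 647 TPM in the controls and to 539, 541, 613 and 642 TPM in Cre libraries 1 to 4. The 2 lower sums belong to the libraries without Xist above 1 TPM, while AVP-flox 1, the control without it, summed to 615 TPM. With this Xist pattern as a covariate, 5 of the 37 genes rose and 3 fell, with Hmgcs1 (adjusted p = 0.0489), Mvk (0.0499) and Fasn (0.0331) added to the rises and Pmvk (0.0509) lost. The sum of the 5 fatty acid synthesis genes was 269 to 342 TPM in the controls and 185 to 216 TPM in the Cre group. Me1 alone went from 157 to 39.8 TPM on average, and the sum of the 36 other genes was 1858 to 2011 TPM against 1767 to 1956 TPM. The spread between replicates was similar in both groups, with a median coefficient of variation of 11.0% in the controls and 9.70% in the Cre group, and Scd1 varied most, at 46.4% and 67.5%.

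**Figure D4:**
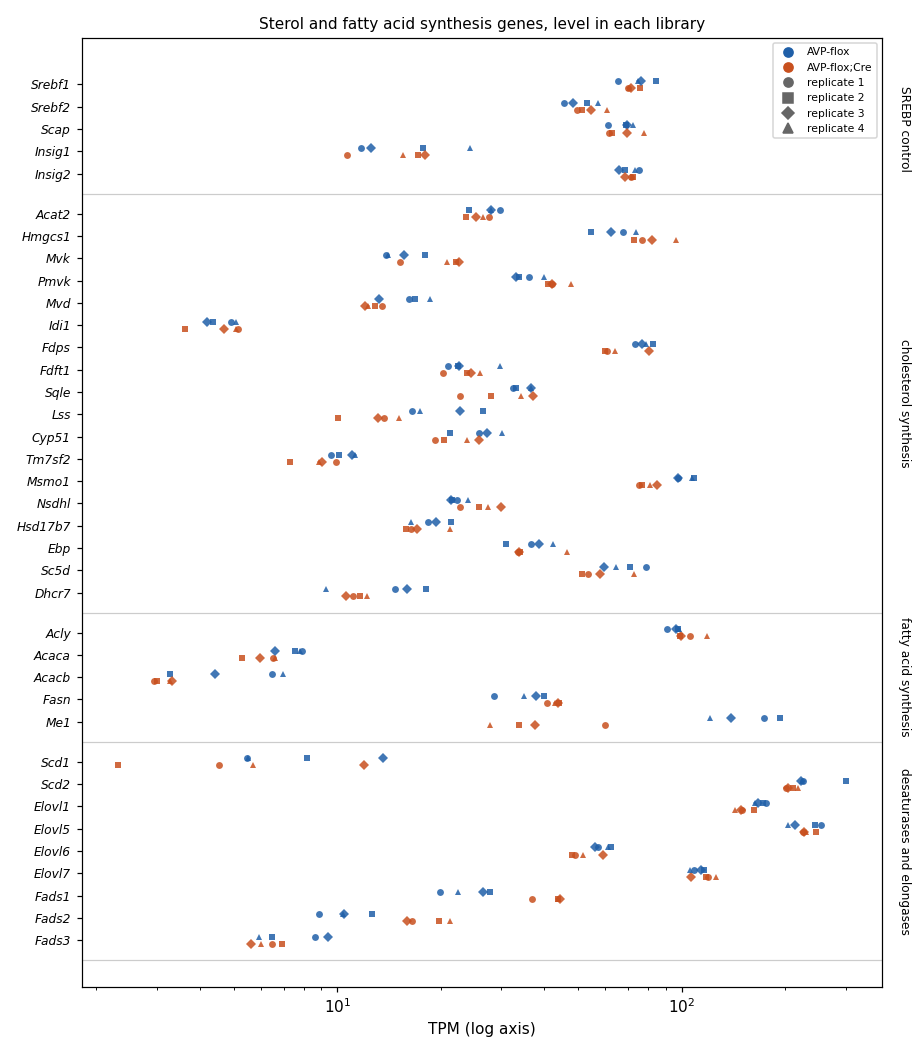
TPM of the 37 genes (rows, arranged by role) in each library on a log axis, with colours for genotype and shapes for replicates 1 to 4. Scd2, Elovl5 and Elovl1 lie highest in both groups, Idi1 and Acacb lie among the lowest, and the groups separate most widely for Me1.

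Levels within the set spanned Idi1 at 4.64 TPM to Scd2 at 243 TPM in the controls. Elovl5, Scd2 and Elovl1 held the first 3 places in both genotypes, with Scd2 first in the controls and Elovl5 first in the Cre group. The mean levels of Scd2 and Elovl5 in the controls, 243 ± 38 and 229 ± 24 TPM, differ by less than their spread. Srebf1 exceeded Srebf2 in each library, by 1.31 to 1.58 times in the controls and by 1.15 to 1.47 times in the Cre group. Insig2 exceeded Insig1 in each library, by 3.02 to 6.65 times over both groups.

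Of 75 genes in 5 further lists around these routes, 71 were tested, and 11 rose, 19 fell and 41 did not pass (42.3% called, against 27.3% of all tested genes). In the fit of protein-coding genes only, 2405 of 13149 genes rose and 2554 fell, a larger share than of all tested genes. The shares of the lists below are set against all tested genes and not against this fit. The lists were chosen with earlier results of these data known, and an excess of calls in them was not tested. The 11 rises of the lists became 6 or 7 without AVP-flox 1, AVP-flox 3, AVP-flox 4 or AVP-flox;Cre 3. In the list of SREBP cleavage and degradation in the endoplasmic reticulum, 3 of 11 rose and 3 fell (54.5% called). Mbtps1, the protease that makes the first cut in SREBP, rose 1.28-fold (log2 fold change 0.36, adjusted p = 0.0140 in limma), a call that ended with no filter on low values (0.0516). The ubiquitin ligase genes Syvn1 and Rnf139 fell, at -0.50 (adjusted p = 0.00774 in limma) and -0.56 (0.0111). The Rnf139 call ended without the 3 libraries that stood apart (0.109).

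In the list of sterol transport, storage and LXR genes, 4 of 16 rose, 3 fell and 9 did not pass (43.8% called, against 27.3% of all tested genes). Soat1, which esterifies cholesterol for storage, stood at 26.1, 26.1, 26.6 and 21.0 TPM in the controls and at 42.3, 35.9, 51.5 and 50.9 TPM in the Cre group, a 1.81-fold rise (log2 fold change 0.82, SE 0.13, adjusted p = 0.00154 in limma). Lipa, the lysosomal lipase that frees cholesterol from its esters, stood at 65.96, 70.0, 54.0 and 50.0 TPM and at 29.8, 28.5, 26.5 and 33.2 TPM, a 2.03-fold fall (-0.99, SE 0.12, adjusted p = 3.54e-04). These genes of storage and release did not overlap between groups and moved in opposite directions. The proteins Gramd1a and Gramd1b, which carry cholesterol from the plasma membrane to the endoplasmic reticulum, also differed in direction. Gramd1a rose 1.65-fold (0.71, adjusted p = 4.96e-04), and Gramd1b fell 1.94-fold (-0.92, adjusted p = 5.73e-04).

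Of the isoprenoid branch genes, 3 of 13 rose and 2 fell (38.5% called, against 27.3% of all tested genes). Fntb, a subunit of farnesyltransferase, rose by 0.53 (adjusted p = 0.0113 in limma), and Dolk, the dolichol kinase, fell by 0.41 (0.0185). The Dolk call passed in 19 of 23 alternatives and ended, among others, with no filter (0.0667) and without AVP-flox 3 (0.0543). Rabggta and Rabggtb, the subunits of the enzyme that prenylates Rab proteins, went opposite ways, at 0.36 (0.0223) and -0.34 (0.0299). The Rabggta call ended without AVP-flox 1, 3 or 4 or AVP-flox;Cre 3 (0.056 to 0.0649), and the Rabggtb call without AVP-flox 1 or 2 or AVP-flox;Cre 1, 2 or 3 (0.0549 to 0.0753). Over all 23 alternatives, Rabggta passed in 16 and Rabggtb in 13. In the list of fatty acid activation and elongation partners 1 of 16 tested genes rose and 7 fell, while 8 stayed short of the threshold (median -0.23). The share called was 50.0%, against 27.3% of all tested genes. Acsl5, an acyl-CoA synthetase, stood at 135, 141, 132 and 125 TPM in the controls and at 69.6, 77.1, 85.9 and 72.3 TPM in the Cre group, a 1.75-fold fall (-0.80, SE 0.08, adjusted p = 1.22e-04). Acsl1, of the same family, fell 1.59-fold. Hacd2, the dehydratase of the elongation cycle, and Hsd17b12, its ketoacyl reductase, fell by 0.50 and 0.39 (adjusted p = 0.00623 and 0.00850), while no elongase itself passed. The Hsd17b12 call ended with median-of-ratios scaling (-0.42, adjusted p = 0.0754). Without AVP-flox 1 and 3, the calls of Mbtps1 (0.124), Fntb (0.0953), Acsl1 (0.0642) and Hsd17b12 (0.0760) were among those that ended. The test of a difference between these lists was not made.

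In the glycerolipid list 0 of 15 rose in limma, 4 fell and 11 stayed short of the threshold, with 5 of the 15 at an unadjusted p under 0.05. The share called, 26.7%, was near the 27.3% of all tested genes. The fit of protein-coding genes only called a larger share, with 2405 of 13149 genes higher and 2554 lower. Agpat2, which makes phosphatidic acid, stood at 285, 334, 280 and 282 TPM in the controls and at 203, 162, 187 and 159 TPM in the Cre group, a 1.66-fold fall (-0.73, SE 0.10, adjusted p = 5.35e-04). Lipe, the hormone-sensitive lipase, which cyclic AMP signalling activates in fat cells, fell 1.89-fold from 41.9 to 56.2 TPM to 22.3 to 31.1 TPM (-0.89, adjusted p = 6.50e-04). Gpat3, which starts glycerolipid synthesis, fell 1.44-fold (-0.52, adjusted p = 0.00403). Agpat3 stood at 166, 181, 207 and 185 TPM in the controls and at 143, 49.1, 77.9 and 38.9 TPM in the Cre group (-1.42, adjusted p = 0.0101). AVP-flox;Cre 1 was closest to the controls, the first 300 nt of the longest Agpat3 transcript hold 79% GC, and the difference was -1.12 with the GC correction. Without the 3 libraries that stood apart it was -0.81 with an adjusted p = 0.0748, over a range of 4.26e-04 to 0.0748 in 23 alternatives.

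**Figure D5:**
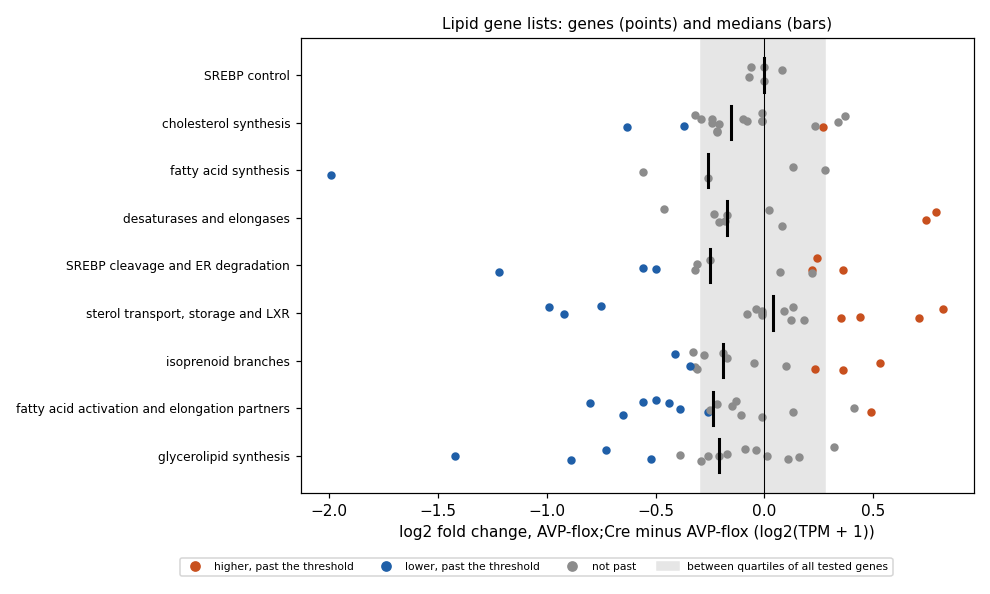
Log2 fold change of each tested gene (points, horizontal axis on the log2(TPM + 1) scale) in the 4 groups of synthesis genes and the 5 surrounding lists, with list medians as bars and the range between the quartiles of all tested genes, -0.29 to 0.28, shaded. All 5 SREBP control genes lie in the shaded band, and the 7 falls of the activation and elongation partners reach -0.80.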

How the data were processed

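RNA from 8 mouse kidney libraries labelled IMCD was measured, 4 per genotype. Per the labels' protocols, the SMART-Seq HT kit turned 1 ng of RNA into cDNA over 11 PCR cycles, followed by paired reads of 50 bp. Such libraries do not mark strand. The submitters' processing notes list the tools STAR and RSEM. Genome build: not given in the sources used here. The authors deposited TPM values per Ensembl gene, with columns summing to 1000000 within 2.04. Depth is unknown, so no counting interval is given. WT columns were matched to AVP-flox and KO columns to AVP-flox;Cre through their replicate numbers.

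Identifiers sharing a symbol were summed (312 symbols), and each of the 37 members had 1 identifier. Values were taken as log2(TPM + 1), which understates changes of low genes. The 19043 genes averaging 1 TPM or more were compared with limma 3.58.1 in R 4.3.3 with a mean-variance trend, as a two-sided test, adjusted by Benjamini-Hochberg over these genes, with a threshold of 0.05. Exact permutation tests of mean TPM used SciPy 1.17.1. The fit was tested on simulated data. GENCODE M21 supplied GC content and overlaps (87.4% of tested genes matched) and RefSeq the start site windows. Named genes are the 37 members, up to 4 called genes per further list with the smallest adjusted p, and overlapping or related copies. A gene that this rule names is not reported here. The members and lists were chosen with earlier results of these data known. Alternatives were other pseudocounts, filters, scalings, moderation, sample weights, a replicate block, the Xist pattern, unsummed identifiers, GC correction, protein-coding genes, a threshold of 0.1 and libraries left out.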

Additional observations from a re-analysis of the deposited data

Results flagged for a closer look

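In groups of 4, a library was singled out when its gap to the nearest other library divided by the group's range exceeded Dixon's 95% critical value, which chance passes in about 1 of 20 groups. Of 74 groups (37 genes in 2 genotypes), 4 were singled out. Pmvk was at 47.75 TPM in AVP-flox;Cre 4 against 41.0 to 42.0 TPM in the other 3, and Ebp, the sterol isomerase, was at 46.44 TPM in the same library against 33.5 to 34.1 TPM. AVP-flox;Cre 4 also had the most genes above 0 TPM, at 58232. Scd2 was at 299.93 TPM in AVP-flox 2 against 222 to 226 TPM in the other AVP-flox libraries, and that library had the lowest thick limb sum of its group. Fads1 was at 36.8 TPM in AVP-flox;Cre 1 against 43.8 to 44.3 TPM in the others of its group, still above all AVP-flox libraries. The part of library differences in these values was not tested.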

How the results depend on the processing

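No called gene of the 37 changed direction in 24 alternatives. Me1, Fads1 and Fads2 passed in all 24, with log2 fold changes of -2.20 to -1.57, 0.70 to 0.91 and 0.58 to 0.82, while Msmo1 lost its call only without the 3 libraries that stood apart (AVP-flox 2 and those numbered 2 and 4 of AVP-flox;Cre) (adjusted p = 0.0676). Of 31 uncalled genes, 22 passed in none. The 3 rises became 5 with the Xist covariate and 6 at a threshold of 0.1. The 3 falls became 5 with rescaling without mitochondrially encoded and the 10 most abundant genes, 6 at a threshold of 0.1 and 1 without the 3 libraries that stood apart. With each library left out, the 37 genes gave 2 to 4 rises and 3 to 4 falls, and the 75 surrounding genes 6 to 9 rises and 17 to 21 falls. Their 11 rises were 7 with the replicate block, 5 with no filter, 6 with median-of-ratios scaling, 7 without the trend and 7 without the 3 libraries that stood apart. Without AVP-flox 1 and 3, an alternative chosen after seeing the data, they were 3 with 9 falls. The cause of these changes was not tested. Fits with libraries left out had fewer samples, and the fit with no filter tested 67580 genes in place of 19043. Same-numbered libraries had correlations of 0.001 to 0.095 in their deviations, and differently numbered ones of -0.0631 to 0.0681. Replicate numbers were not taken as pairs, because the labels do not say that a number marks a shared animal or batch. In the replicate block Lss lost its call (-0.63, adjusted p = 0.0613), and the 37 genes had 4 rises and 2 falls. The unknown depth limits genes of a few TPM most, such as Idi1, Acacb and Scd1.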
